A study of Drosophila melanogaster with 12 samples.

Results

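The genes described here are 10 markers of the somatic follicle cells that surround the germline in the Drosophila ovary, chosen by name: ct, cas, mirr, zfh1, eya, tj, slbo, peb, ttk and Fas3. The probe annotation assigns 11 of the 18952 probe sets of the array to 8 of these genes. It assigns none to ttk, a BTB zinc finger repressor, or to Fas3, an adhesion protein of young follicle cells and polar cells, and these 2 genes were not analysed here. Of the 11 probe sets 10 passed the filter on low signal, and each of the 8 genes was among the 9105 genes tested. Fas3 is not a transcription factor and eya encodes a coactivator, so the set is one of regulators and cell markers.

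Ovaries were taken from virgin females 4 to 6 h after eclosion, in 4 groups of 3 arrays. Wild type was Canton S, the fertile mutant was su(Hw)f/su(Hw)v (f/v below), and the sterile mutants were su(Hw)2/su(Hw)v (2/v) and su(Hw)Pb/su(Hw)2 (Pb/2). The v allele is common to f/v and 2/v, and the 2 allele to the sterile genotypes. Each array was given RNA pooled from some 150 ovary pairs. The p-values therefore describe how far such pools vary, which may be technical. By the series' design text, egg chambers of this age are no older than stage 8, and loss of Su(Hw), a zinc finger DNA-binding protein of insulators, leads to cell death at stage 9.

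Follicle cells arise from stem cells in the germarium and separate early into polar cells, stalk cells and the main body epithelium. Cas and Eya sort these early fates. Cut keeps main body cells in the mitotic cycle until Notch signalling turns on Hindsight, the product of peb, which represses cut as the cells begin to endocycle. Mirr patterns the dorsal anterior epithelium, Tj marks somatic cells that touch the germline, and the C/EBP protein Slbo is needed for border cell migration.

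Values are quantile normalized signals in intensity units, and fold changes are differences of mean log2(signal + 16) between groups of 3 arrays. Each ± after a fold change is the standard error of a limma fit to all 12 arrays, and a gene was called at a Benjamini and Hochberg adjusted p below 0.05 over all 9105 genes. The scale understates changes of dim genes, and levels of different genes are not compared. Background was set at 61.97, below which 95% of the deposited values of the control probe sets for bacterial transcripts lay. Normalized signals were compared with this value, although the controls themselves were not normalized. The su(Hw) transcript read 3561 to 3999 on the wild type arrays and 2591 to 2912 on the f/v arrays. It read 81.4 to 212 on the arrays of the sterile genotypes. The hybridization control CreX, which is added to every array, was 1.24 times (f/v), 1.4 times (2/v) and 1.46 times (Pb/2) its wild type mean. The 8 germline markers measured summed to between 75745 and 87881 on every array, with none below background throughout a group. Of these none was called in f/v, 4 fell and 1 rose in 2/v, and 2 fell and 1 rose in Pb/2.

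Of the 8 genes tested, 5 were lower than wild type in all 3 mutants. They were cas, ct, zfh1, mirr and eya, and over all genes tested 8.35% were called lower in all 3. None was called higher in all 3, against 8.70% of all genes. In f/v 6 of the 8 fell and 1 rose, where 16.9% of all genes fell and 18.3% rose. In 2/v 5 fell and 1 rose, against 22.4% and 24.2% of all genes. In Pb/2 5 fell and none rose, against 15.6% and 15.9% of all genes. Calls in either direction made up 35.2%, 46.6% and 31.5% of all genes in f/v, 2/v and Pb/2. The 8 genes had a median log2 fold change of -0.77, -0.88 and -0.59 in that order, while that of all genes was 0.02, 0.01 and 0.00. Called changes of at least 2-fold were seen in 3, 4 and 1 of the 8, against 8.15%, 10.7% and 10.2% of all genes. The mutant arrays did not overlap the wild type arrays for 7, 5 and 5 of the 8, against 49.8%, 57.0% and 45.4% of all genes. These comparisons share the wild type arrays. In bulk ovary RNA fewer cells of a type and less RNA per cell cannot be told apart.

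**Figure D1:**
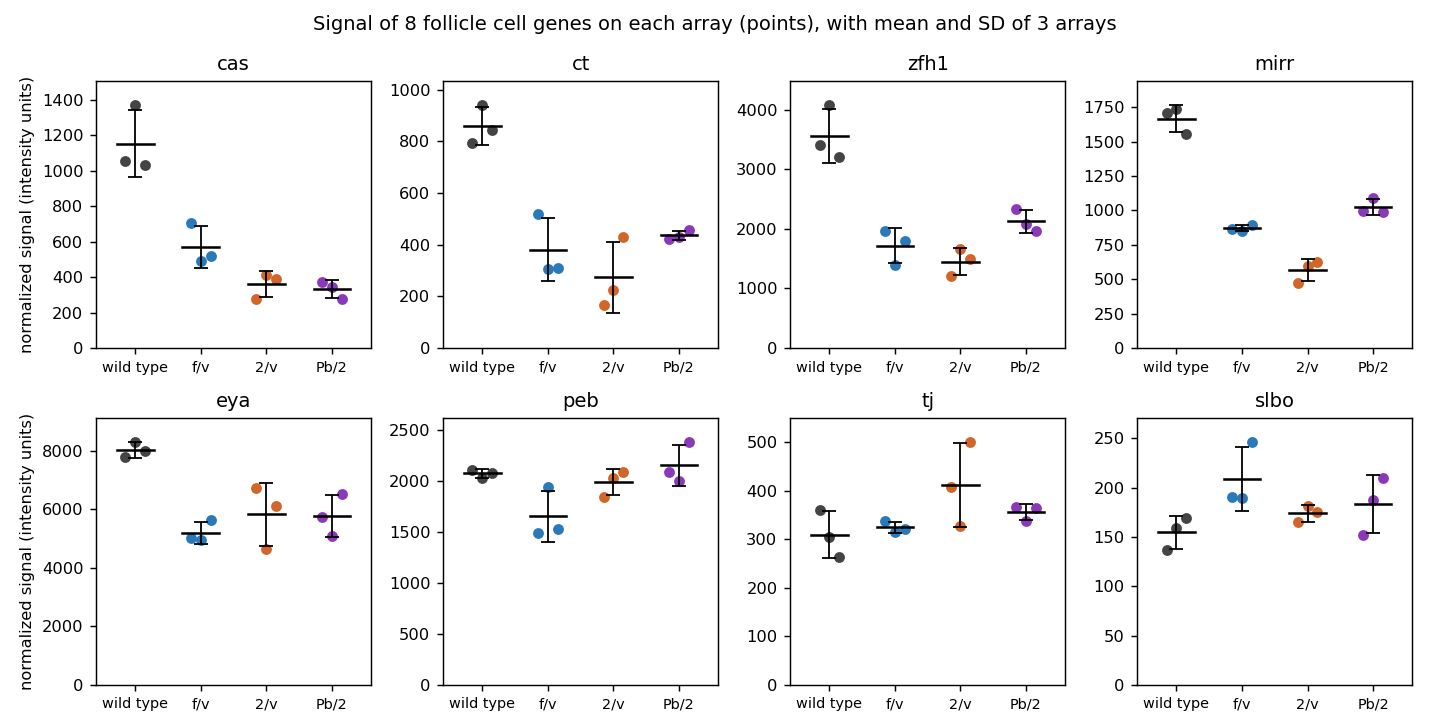
Normalized signal (intensity units, axis from 0) of the 8 genes with a probe set, on each of the 12 arrays (points), with the mean (line) and SD (bar) of 3 arrays per group. All mutant arrays lie below all wild type arrays for cas, ct, zfh1, mirr and eya, while the wild type arrays of tj overlap every mutant.

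The zinc finger gene cas, which acts in follicle stem cells and in the precursors of polar and stalk cells, fell most among the 8 genes in Pb/2. Its signal was 1054.9, 1369.4 and 1032.2 on the wild type arrays. It was 704.1, 489.6 and 517.9 in f/v, 276.5, 412.4 and 390.6 in 2/v, and 373.4, 346.4 and 275.1 in Pb/2. All 9 mutant arrays lay below the 3 wild type arrays, and all 6 arrays of the sterile genotypes lay below the f/v arrays. Against wild type cas fell, with log2 fold changes of -1.0 ± 0.19 in f/v (adjusted p = 0.0025), -1.64 ± 0.19 in 2/v (adjusted p = 7.6e-05) and, for Pb/2, -1.75 ± 0.19 (adjusted p = 5.6e-05). In Pb/2 the mean was 28.8% of the wild type mean, and 1.87% of all tested genes had a lower fold change.

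The cas gene was the only 1 of the 8 that was called lower in both sterile genotypes than in f/v. The share of all genes called lower in both was not computed, while 13.6% were in 2/v and 10.5% in Pb/2. For cas the difference was -0.64 ± 0.19 for 2/v (adjusted p = 0.031) and -0.75 ± 0.19 for Pb/2 (adjusted p = 0.02). Between the sterile genotypes it was -0.1 with a 95% interval of -0.53 to 0.32. The call of 2/v against f/v ended without f/v replicate 1 (-0.49, adjusted p = 0.11), f/v replicate 3 (-0.70, adjusted p = 0.053) or 2/v replicate 1 (-0.47, adjusted p = 0.1), and with a replicate block (adjusted p = 0.052). The call of Pb/2 against f/v ended without f/v replicate 1 (-0.59, adjusted p = 0.068) or Pb/2 replicate 3 (-0.62, adjusted p = 0.069).

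The homeodomain gene ct read 794.5, 939.4 and 842.1 in wild type with its brightest probe set. It read 520.6, 307.5 and 311.2 in f/v, 167.0, 225.4 and 429.3 in 2/v, and 421.6, 429.7 and 456.2 in Pb/2. No mutant array reached the wild type range, but the mutants overlapped one another. The group means were 44.2% (f/v), 31.9% (2/v) and 50.8% (Pb/2) of the wild type mean. Within groups it was the least even of the 8 genes in f/v and in 2/v, with a coefficient of variation of 32.1% and 50.3%, and that in Pb/2 was 4.16%. It fell, with log2 fold changes of -1.18 ± 0.29 in f/v (adjusted p = 0.0097), -1.69 ± 0.29 in 2/v (adjusted p = 9.4e-04) and, for Pb/2, -0.95 ± 0.29 (adjusted p = 0.03). The Pb/2 call ended when any 1 of the 6 wild type and Pb/2 arrays was left out (adjusted p = 0.055 to 0.088) and with a replicate block (adjusted p = 0.051).

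A dimmer probe set of ct gave the same order of wild type over the mutants. It read 290.5, 263.4 and 292.8 in wild type, while the highest of the 9 mutant arrays, Pb/2 replicate 3, read 229.8. Tested among all probe sets it fell by 1.41 ± 0.30 in f/v (adjusted p = 0.0061) and by 1.29 ± 0.30 in 2/v (adjusted p = 0.0074). In Pb/2 it read -0.80 ± 0.30 and was not called (adjusted p = 0.082). The remaining probe set of ct read 5.31 to 54.7 on the 12 arrays, not above background on any, and gives no fold.

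Set between the mutants, ct differed by -0.51 ± 0.29 in 2/v against f/v (adjusted p = 0.22) and by 0.74 ± 0.29 in Pb/2 against 2/v (adjusted p = 0.097). The 95% intervals were -1.15 to 0.14 and 0.10 to 1.39. The dimmer probe set turned the direction of the first (0.12 ± 0.30, adjusted p = 0.82) and gave 0.49 ± 0.30 for the other (adjusted p = 0.31). For the brightest probe set, omission of single arrays gave -0.87 to -0.23 for the first and 0.46 to 1.10 for the other. Of these omissions only that of 2/v replicate 3 brought a call. Without it 2/v differed from f/v by -0.87 (adjusted p = 0.018) and Pb/2 from 2/v by 1.10 (adjusted p = 0.012), both past the threshold. With a trended, robust variance the latter comparison was called with all arrays too (0.74, adjusted p = 0.037).

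The zinc finger and homeodomain gene zfh1, best known from somatic stem cells of the testis, read 3402.6, 4071.8 and 3207.6 in wild type. It read 1965.0, 1397.5 and 1793.7 in f/v, 1204.4, 1656.8 and 1490.9 in 2/v, and 2327.3, 2080.8 and 1963.6 in Pb/2. The mutants lay below wild type without overlap, at 48.3%, 40.7% and 59.6% of its mean. The gene fell, with log2 fold changes of -1.05 ± 0.15 in f/v (adjusted p = 4.7e-04), -1.29 ± 0.15 in 2/v (adjusted p = 9.0e-05) and, for Pb/2, -0.74 ± 0.15 (adjusted p = 0.0043). Pb/2 lay above 2/v by 0.55 ± 0.15 (adjusted p = 0.031). That call ended without 2/v replicate 1 (0.43), 2/v replicate 3 (0.58), Pb/2 replicate 1 (0.49) or Pb/2 replicate 2 (0.57), with adjusted p = 0.062 to 0.11, with a replicate block (adjusted p = 0.065), and scaled to CreX (0.54, adjusted p = 0.14).

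**Figure D2:**
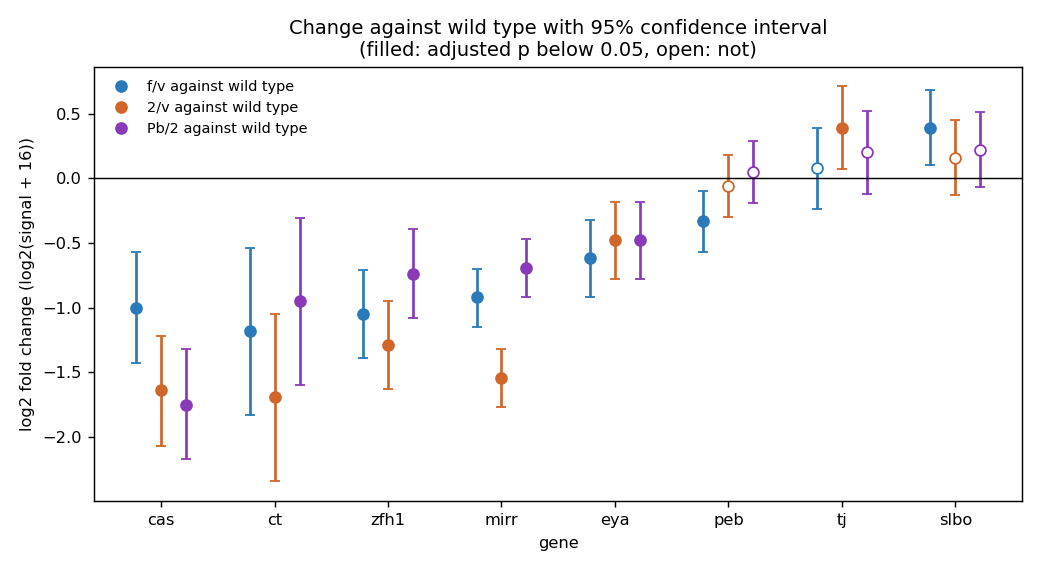
Log2 fold change (log2(signal + 16) scale) of the 8 genes in each mutant against wild type, with 95% confidence intervals from the limma fit. Filled points were called at an adjusted p below 0.05. The points of cas, ct, zfh1, mirr and eya are filled and below 0 in all 3 mutants, from -0.48 for eya in 2/v and Pb/2 to -1.75 for cas in Pb/2.

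The Iroquois homeodomain gene mirr had the smallest standard error of the 8 genes. Its brighter probe set read 1706.1, 1736.2 and 1554.6 in wild type. It read 866.2, 849.6 and 894.3 in f/v, 473.2, 596.8 and 622.9 in 2/v, and 993.0, 1092.9 and 985.5 in Pb/2. The 4 groups did not overlap at all, with wild type highest, then Pb/2, f/v and 2/v. Against wild type mirr fell, with log2 fold changes of -0.92 ± 0.10 in f/v (adjusted p = 5.8e-05), -1.54 ± 0.10 in 2/v (adjusted p = 1.2e-06) and, for Pb/2, -0.69 ± 0.10 (adjusted p = 3.8e-04). It was lower in 2/v than in f/v (-0.62 ± 0.10, adjusted p = 0.0012) and higher in Pb/2 than in 2/v (0.85 ± 0.10, adjusted p = 5.7e-04). Pb/2 against f/v was not called (0.23, 95% interval 0.01 to 0.45, adjusted p = 0.14), although without 2/v replicate 1 it was (0.23, adjusted p = 0.043).

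The other probe set of mirr did not show falls of this size. It read 417.2, 507.1 and 377.3 in wild type and 244.4, 294.9 and 374.0 in 2/v. The f/v arrays read 361.0, 263.2 and 361.6, and the Pb/2 arrays read 389.3, 364.9 and 308.5, so that Pb/2 overlapped wild type. Its differences from wild type were -0.39 ± 0.18 in f/v (adjusted p = 0.13), -0.50 ± 0.18 in 2/v (adjusted p = 0.049) and, for Pb/2, -0.28 ± 0.18 (adjusted p = 0.3). It separated no pair of mutants (adjusted p = 0.44 to 0.73), and with the mean of both probe sets 2/v against f/v was not called (-0.37, adjusted p = 0.062). The annotation does not say which transcripts each probe set reads.

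**Figure D3:**
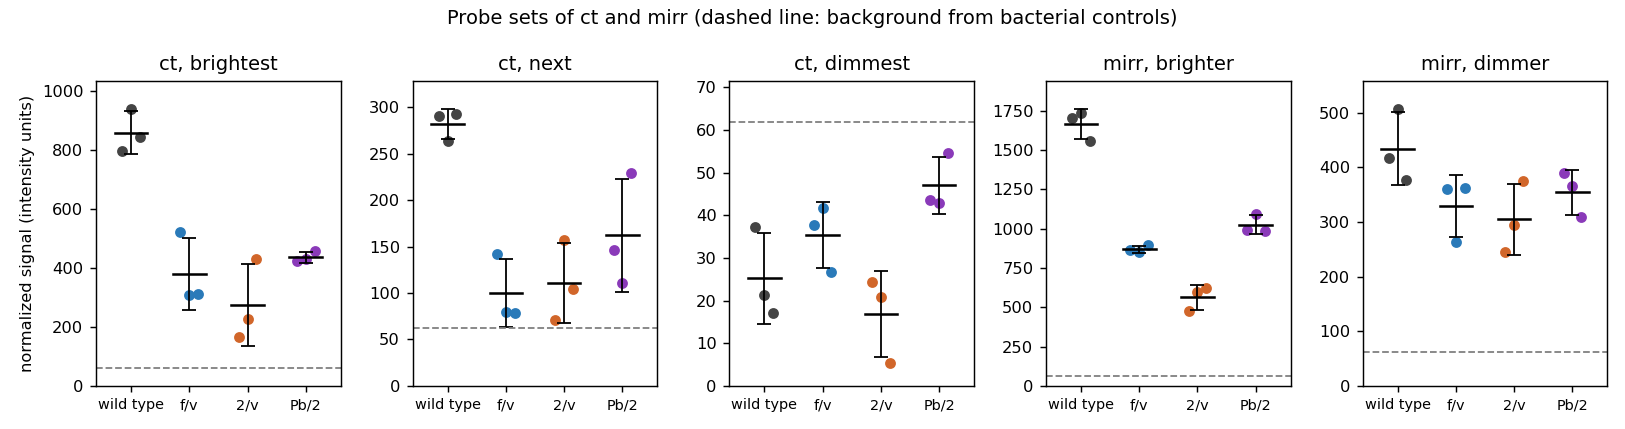
Normalized signal (intensity units, axes from 0) of the 3 probe sets of ct and the 2 of mirr on each array (points), with the mean (line) and SD (bar) of 3 arrays, and background at 61.97 as a dashed line. Both brighter probe sets of ct fall together, the dimmest lies under the line on all 12 arrays, and the dimmer mirr probe set has narrower gaps between groups than the brighter.

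The coactivator and phosphatase gene eya, which represses polar cell fate, read 7768.2, 8291.9 and 7980.5 in wild type. It read 5017.3, 4947.7 and 5629.2 in f/v, 6709.3, 4639.2 and 6101.3 in 2/v, and 5738.7, 5079.3 and 6508.0 in Pb/2. The mutants overlapped one another and lay below wild type. The gene fell, with log2 fold changes of -0.62 ± 0.13 in f/v (adjusted p = 0.0048), -0.48 ± 0.13 in 2/v (adjusted p = 0.015) and, for Pb/2, -0.48 ± 0.13 (adjusted p = 0.021). With the array median subtracted no mutant was called (f/v -0.38, 2/v -0.14 and Pb/2 -0.21, adjusted p = 0.092 to 0.51). The Pb/2 call also ended without wild type replicate 2 (-0.45, adjusted p = 0.065), Pb/2 replicate 1 (-0.48, adjusted p = 0.054) or Pb/2 replicate 2 (-0.39, adjusted p = 0.076). The mutants were not distinguished from one another, with 95% intervals of -0.15 to 0.45 for either sterile genotype against f/v and of -0.30 to 0.30 between them.

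Signals of peb, the Hindsight gene, were called lower in f/v and overlapped wild type in the sterile genotypes. The wild type arrays read 2114.0, 2034.9 and 2081.9, and the f/v arrays 1495.4, 1942.3 and 1530.7. The 2/v arrays read 1847.8, 2033.3 and 2093.0 and the Pb/2 arrays 2089.0, 2000.9 and 2386.3, both overlapping wild type. In f/v peb fell by 0.33 ± 0.11 (adjusted p = 0.034). It read -0.06 in 2/v, with a 95% interval of -0.30 to 0.18, and 0.05 in Pb/2, with an interval of -0.19 to 0.29. Pb/2 lay above f/v by 0.39 ± 0.11 (adjusted p = 0.029), without overlap of the arrays. The f/v call ended without any 1 of the wild type arrays or f/v replicates 1 (-0.27) or 3 (-0.28), with adjusted p = 0.069 to 0.12, with a replicate block (adjusted p = 0.055), and with the array median subtracted (-0.24, adjusted p = 0.25). The Pb/2 against f/v call ended without f/v replicate 1 or 3 or Pb/2 replicate 1 or 3 (0.31 to 0.41, adjusted p = 0.06 to 0.099), and with a replicate block (adjusted p = 0.052). It also ended scaled to CreX (0.15, adjusted p = 0.46) and with the array median subtracted (0.42, adjusted p = 0.1). The difference of 2/v from f/v was not called (0.27 ± 0.11, adjusted p = 0.087), but was without f/v replicate 2 (0.39, adjusted p = 0.013).

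The large Maf gene tj read 359.9, 304.3 and 262.7 in wild type and 337.3, 314.4 and 320.4 in f/v. It read 406.7, 327.8 and 499.9 in 2/v and 365.2, 336.8 and 364.3 in Pb/2. The wild type arrays overlapped every mutant. It was called higher in 2/v (0.39 ± 0.14, adjusted p = 0.048) and not in f/v (0.08, 95% interval -0.24 to 0.39) or Pb/2 (0.20, interval -0.12 to 0.52). The 2/v call held in 5 of 24 alternatives. Values as deposited gave 0.05 (adjusted p = 0.82), scaling to CreX gave -0.44 (adjusted p = 0.1), a replicate block gave adjusted p = 0.058, and 10 of the 12 arrays each ended it when left out (0.24 to 0.39, adjusted p = 0.059 to 0.17). Only the omission of wild type replicate 1 or 2/v replicate 2 left it standing among the 12. The difference of 2/v from f/v was not called (0.31 ± 0.14, adjusted p = 0.14), but was without 2/v replicate 2 (0.46, adjusted p = 0.032). No neighbouring groups in the order of tj means differed beyond their spread.

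The border cell gene slbo was above background on all 12 arrays. It read 136.6, 158.7 and 169.1 in wild type, 190.8, 189.9 and 246.3 in f/v, 164.9, 181.5 and 175.1 in 2/v, and 152.2, 187.5 and 210.2 in Pb/2. Every f/v array lay above wild type and the sterile genotypes overlapped it. In f/v slbo rose by 0.39 ± 0.13 (adjusted p = 0.039). It read 0.16 in 2/v (95% interval -0.13 to 0.45) and 0.22 in Pb/2 (interval -0.07 to 0.51). The f/v call ended without wild type replicate 1 (0.31) or 2 (0.41), f/v replicate 3 (0.28), 2/v replicate 2 or 3 or Pb/2 replicate 2 (each 0.39), with adjusted p = 0.05 to 0.14. With values as deposited it read 0.11 (adjusted p = 0.6), and scaled to CreX -0.20 (adjusted p = 0.31). Scaled to CreX, slbo was called lower in 2/v than in f/v (-0.48, adjusted p = 0.044).

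Compared among themselves, the mutants differed in fewer of the 8 genes than each did from wild type, and the same held over all genes. In 2/v against f/v 2 genes, cas and mirr, fell and none rose, where 13.6% of all genes fell and 13.8% rose. In Pb/2 against f/v cas fell and peb rose, where 10.5% of all genes fell and 10.0% rose. In Pb/2 against 2/v mirr and zfh1 rose and none fell, where 9.28% of all genes rose and 11.1% fell. Calls in either direction made up 27.4%, 20.5% and 20.4% of all genes in these comparisons. None of the 8 differed by 2-fold or more, against 5.88%, 4.83% and 2.28% of all genes. Arrays did not overlap for 3, 3 and 2 of the 8, against 43.9%, 38.0% and 38.9% of all genes. The medians of the 8 genes were -0.24, 0.19 and 0.09.

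The fold changes of the 5 genes that fell were below 0 in all 3 mutants under each of the 4 scalings tried, but with the array median subtracted eya was called in none, while peb, tj and slbo each changed sign in at least 1 mutant. Scaled to CreX, the median over all genes stood at -0.34 (f/v), -0.56 (2/v) and -0.60 (Pb/2). Relative to that median, cas read -1.13, -1.79 and -1.83 and eya -0.54, -0.35 and -0.38 in the same order. On the same relative scale tj read -0.20, 0.12 and 0.00, slbo 0.14, -0.12 and -0.01, and peb -0.39, -0.11 and 0.01. Before that subtraction, CreX scaling made slbo (-0.60), tj (-0.60) and peb (-0.59) called lower in Pb/2, and slbo (-0.68) and peb (-0.67) in 2/v. With each array's own median subtracted instead, the same medians were 0.16, 0.21 and 0.17.

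**Figure D4:**
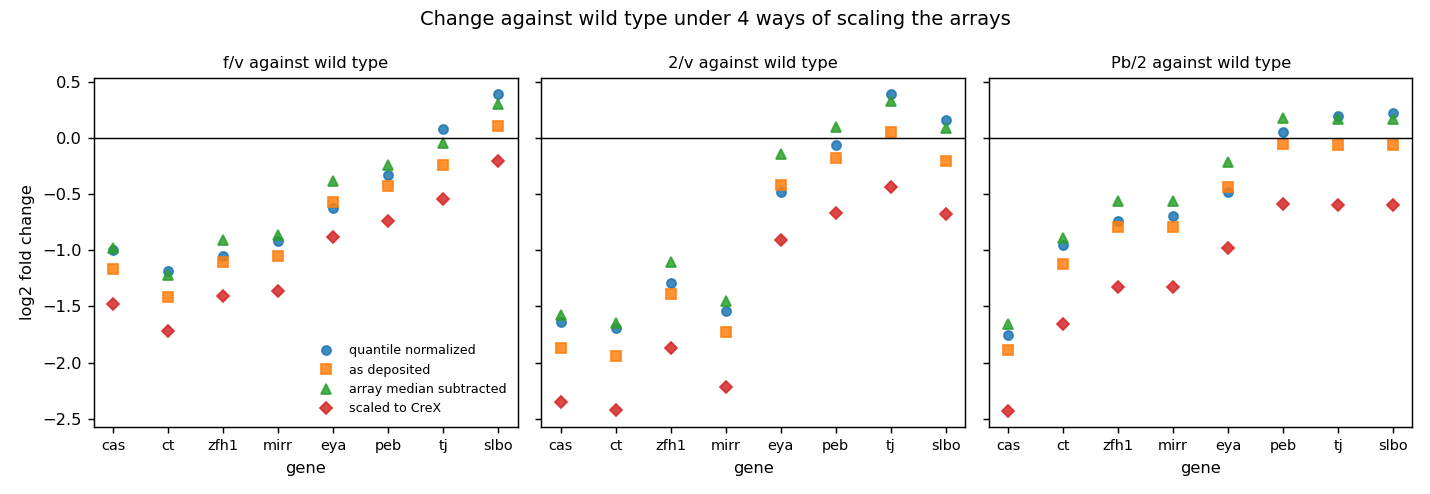
Log2 fold change of the 8 genes against wild type (1 panel per mutant) with 4 ways of scaling the arrays, by marker. The markers of cas, ct, zfh1, mirr and eya stay below 0 in every panel, while those of peb, tj and slbo lie on both sides of 0 in at least 1 panel each.

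Other regulators of follicle cells were read from 5 lists. Of 11 Notch pathway genes tested 4 fell and none rose in f/v, 4 fell and 1 rose in 2/v, and 3 fell and none rose in Pb/2, with medians of -0.13, -0.18 and -0.13. Called lower in all 3 were fng, a glycosyltransferase that modifies Notch (-0.50, -0.67 and -0.30), and kuz, the protease that cleaves it (-0.50, -0.63 and -0.48). Of 8 JAK/STAT genes 1, 2 and 1 fell and none rose, with medians of 0.07, -0.10 and 0.07. The polar cell ligand gene upd1 was called lower in 2/v (-0.53 ± 0.11, adjusted p = 0.0027) and Pb/2 (-0.49 ± 0.11, adjusted p = 0.0061), and chinmo in f/v (-0.77 ± 0.25) and 2/v (-0.80 ± 0.25).

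Of 8 Hedgehog and Wnt genes 3 fell and 1 rose in each mutant, with medians of -0.06, -0.13 and -0.09. The Hedgehog effector gene ci read -0.76, -1.07 and -0.76 (each ± 0.14) in f/v, 2/v and Pb/2, called in each. The glypican gene dlp read -0.53, -0.79 and -1.08 (each ± 0.13) and hh itself -0.60, -0.56 and -0.97 (each ± 0.17), all called. Signals of hh were low, with means of 167.0, 104.9, 108.7 and 77.65 in wild type, f/v, 2/v and Pb/2, beside a background of 61.97. The receptor gene ihog rose by 0.60, 0.63 and 0.51 (each ± 0.09). Of the 16 genes of the list 8 were tested.

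Of 12 EGFR, BMP and patterning genes 1, 3 and 1 fell and 1, 4 and 3 rose in f/v, 2/v and Pb/2. The transcription factor gene br fell in all 3 (-0.77, -0.74 and -0.47, each ± 0.13), and the BMP effector gene Mad rose (0.51, 0.75 and 0.79, each ± 0.16). Of 11 border cell and adhesion genes 4, 2 and 2 fell and 3, 2 and 1 rose. The adhesion gene Nrg fell in all 3 (-0.83, -0.89 and -0.72, each ± 0.14), as did tai, a steroid receptor coactivator gene of border cells (-0.48, -0.74 and -0.74, each ± 0.15).

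Of 5 genes for products of follicle cells 1 rose and 2 fell in f/v, 3 rose and none fell in 2/v, and 4 rose and 1 fell in Pb/2. The yolk protein gene Yp1, which fat body also expresses, rose in all 3 mutants, by 0.31, 0.31 and 0.39 (each ± 0.09). Summed over the list, the signal was 97.0%, 114% and 120% of wild type. Markers of terminal filament, cap and escort cells summed to 100%, 103% and 116% of wild type over the 4 genes tested, of which bab2 fell in all 3 mutants (-0.71, -0.72 and -0.55). The gene bab1 held 51.9% of that sum in wild type, and the other 3 genes summed to 69.3%, 62.5% and 73.8% of wild type. In f/v 1 of the 4 fell and none rose, in 2/v 2 fell and 1 rose, and in Pb/2 1 fell and 1 rose. The markers en, in each mutant, and tup, in wild type and 2/v, lay below background.

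Of 6 muscle genes 6 fell in each mutant, and their summed signal ranged over 35927 to 36484 (wild type), 18050 to 19352 (f/v), 14212 to 16217 (2/v) and 17071 to 18442 (Pb/2). None of the muscle markers was below background throughout a group. Of 6 hemocyte genes 2, 5 and 4 fell, with sums of 15439 to 16247 (wild type), 8037 to 9197 (f/v), 5719 to 6362 (2/v) and 7051 to 7209 (Pb/2). On all 2/v arrays eater and He lay below background, as did He on all Pb/2 arrays. The gene Ppn held 88.5% of the hemocyte sum in wild type, and without it the other 5 genes summed to 73.9%, 43.3% and 54.3% of wild type.

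Of 3 tracheal genes 2, 2 and 3 fell, and the sum was 58.6%, 31.3% and 35.6% of wild type, with Gasp at 1662.9, 940.3, 437.9 and 587.1 in wild type, f/v, 2/v and Pb/2. Gasp held 65.9% of the tracheal sum in wild type, and the other 2 genes summed to 62.7%, 40.8% and 36.1% of wild type. Of 6 gut genes 5, 5 and 6 fell, and the sum was 9.42%, 10.6% and 10.6% of wild type. Jon99Ci was below background on all Pb/2 arrays. Of 4 fat body genes 3 fell in each mutant, to sums of 71.5%, 55.8% and 61.3%. Of 5 neuronal genes 1 fell in each mutant, elav, and none, 1 and 2 rose, while nSyb and Syn lay below background throughout wild type, and nSyb and para throughout f/v. The neuronal sum was 56.0%, 66.3% and 67.4% of wild type. In wild type elav held 78.8% of it, and the other 4 genes summed to 92.6%, 144% and 147% of wild type. Genes such as ct, cas, zfh1 and eya also act in other tissues of the fly, and the part of these tissues in the 5 falls was not tested.

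**Figure D5:**
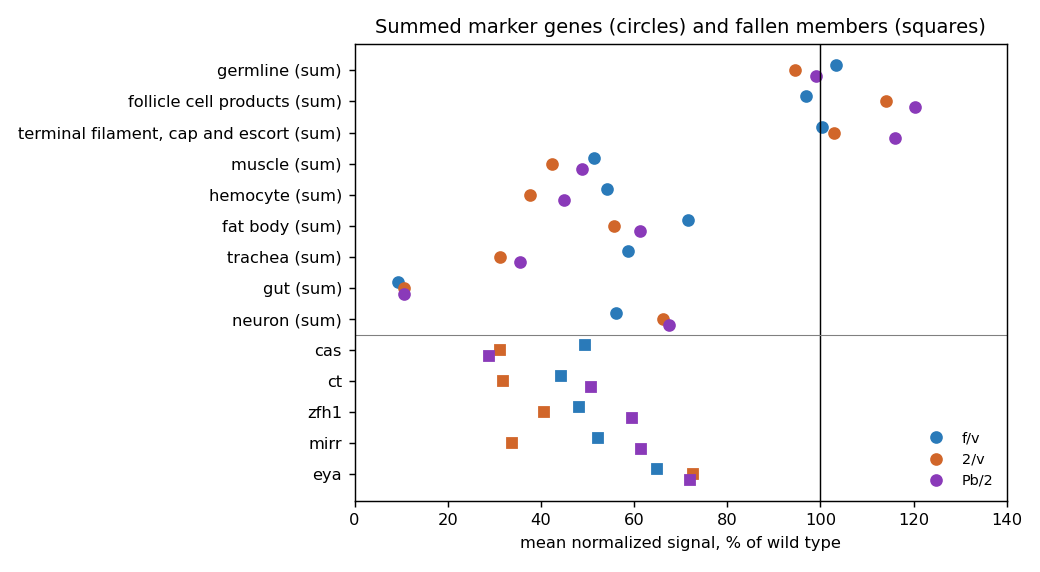
Mean normalized signal as % of wild type (axis from 0) in f/v, 2/v and Pb/2, for the summed genes of 9 marker lists (circles) and for the 5 genes that fell in all 3 mutants (squares). Germline, follicle product and niche markers lie between 94.6% and 120%, while muscle, hemocyte, fat body, tracheal, neuronal and gut markers lie between 9.42% and 71.5% and the 5 genes between 28.8% and 72.6%. The hemocyte, neuronal, tracheal and niche sums are carried mostly by Ppn, elav, Gasp and bab1.

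The profiles of the 5 genes over the 12 arrays were compared with those of all other tested genes, as the root mean square difference of log2 signals after each gene was centred on its own mean. The arrays share groups and scaling, so this is a description. Closest to zfh1 was SoYb, a Tudor domain gene of the piRNA pathway (0.123, where the median gene lay at 0.582). It also ranked 3 for mirr (0.150), behind robo1 (0.138), a Slit receptor gene, and trol (0.147), the perlecan gene of basement membrane. Next to zfh1 after SoYb came abo (0.153) and CG33521 (0.156). SoYb read 1512, 786.4, 573.2 and 941.2 in wild type, f/v, 2/v and Pb/2.

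For ct the closest were bnb (0.257), the muscle gene bt (0.261) and abo (0.268), and for cas they were CG7497 (0.206), CG2233 (0.229) and the muscle gene Mlc2 (0.233). For eya they were mRpL55 (0.128), CG10737 (0.128) and fau (0.138). Among the 5 genes themselves, zfh1 ranked 9 of 9104 in likeness to mirr and mirr ranked 16 in likeness to zfh1. For ct, mirr ranked 4 and zfh1 ranked 7. No other of the 5 genes ranked above 205 for cas, and none above 4921 for eya. The measure depends on the size of a change as well as on its shape, and eya had the smallest falls of the 5. In likeness to zfh1, eya ranked 842.

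Because Su(Hw) is known from insulators, the protein-coding genes next to each of the 8 genes in the RefSeq order (Release 6 plus ISO1 MT, by gene start) were read too, a choice made after seeing the data. Of 16 neighbours 12 were tested, 7 of them beside the 5 genes that fell, and none of these 7 was lower in all 3 mutants, where 8.35% of all genes were. The f/v, 2/v and Pb/2 comparisons called 1, 5 and 3 of the 7 lower, against 16.9%, 22.4% and 15.6% of all genes. Beside mirr, SmD1, a spliceosome gene, rose in all 3 (0.52, 0.42 and 0.36), and the Iroquois gene caup had signal too low to be tested. Beside eya, IFT52 fell in 2/v (-0.96 ± 0.22, adjusted p = 0.0047) and Pb/2 (-0.70 ± 0.22, adjusted p = 0.031) and read -0.07 in f/v. On its other side CG31637 fell in 2/v (-0.39 ± 0.11, adjusted p = 0.012) and Pb/2 (-0.43 ± 0.11, adjusted p = 0.011) and read 0.08 in f/v. Beside zfh1, wts, a kinase gene of the Hippo pathway, fell in f/v (-0.41 ± 0.10) and 2/v (-0.57 ± 0.10) and read -0.17 in Pb/2, and Npc2h fell in 2/v (-0.48 ± 0.14). CHES-1-like beside ct fell in 2/v (-0.25 ± 0.08), and CG1239 beside cas in Pb/2 (-0.37 ± 0.12). Beside slbo, which was not called in the sterile genotypes, the tubulin gene betaTub60D fell in all 3 (-0.60, -0.46 and -0.52).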

How the data were processed

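Expression was measured in ovaries on 12 one-colour arrays, 3 per genotype. The authors deposited linear intensity values, made with GCOS per the submitters' processing notes, and the 2% trimmed mean is equal on every array. For GCOS, version and settings: not given in the sources used here. Source names and descriptions of the labels name embryos, while the tissue, titles and protocols name the ovary, as taken here. Per the labels' protocols, 50 ng of RNA was amplified before hybridization.

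The 183 control probe sets were left out, and log2(signal + 16) was quantile normalized. Symbols were updated by gene number for 13544 of the 13647 probe sets with 1 gene. Each gene was read from its brightest probe set with 1 gene, and 9105 genes whose signal passed the 40th percentile on 3 or more arrays were tested. The 4 genotypes' means came from limma 3.58.1 (R 4.3.3). The fit was tested on simulated data. Figures used matplotlib 3.10.9 in Python 3.11.15.

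The genes, lists and tests were chosen with earlier results of these data known. Every gene of the set is named in all 6 comparisons. From each other list up to 4 genes called the same way in all 3 comparisons against wild type are candidates for naming, or else up to 2 called in any, by size of change. The 3 closest profiles are named for each gene called in all 3. Alternatives were other scalings, pseudocounts of 1 and 64, no filter or the 60th percentile, other probe set rules, fits and thresholds, and omission of each array. The number of arrays limits the precision. Sequences of the probes, promoters and proteins were not used here.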

Additional observations from a re-analysis of the deposited data

How the results depend on the processing

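Of the 24 results in which 1 of the 8 genes was called in 1 of the 6 comparisons, 9 kept their direction and their call in all 24 refits: ct, cas and zfh1 in f/v, ct, cas, mirr and zfh1 in 2/v, and cas and zfh1 in Pb/2, each against wild type. The other 15 lost the call in at least 1 refit, and 11 of 24 uncalled results were called in at least 1. The counts of genes called in the 6 comparisons were 7 (f/v against wild type), 6 (2/v against wild type), 5 (Pb/2 against wild type), 2 (2/v against f/v), 2 (Pb/2 against f/v) and 2 (Pb/2 against 2/v). Omission of single arrays gave 5 to 7, 5 to 6, 3 to 5, 1 to 3, 0 to 3 and 1 to 2 in that order. With the array median subtracted f/v against wild type had 4 and Pb/2 against f/v 1. Of all 9105 genes that setting called 2360 higher and 1146 lower in f/v against wild type, and 820 and 586 in Pb/2 against f/v. Scaled to CreX, Pb/2 had 8 against wild type, 1 against f/v and 1 against 2/v. Of all 9105 genes CreX scaling called 350 higher and 6650 lower in Pb/2 against wild type, beside 1445 and 1424 in the main fit. For Pb/2 it called 357 and 1671 against f/v, and 242 and 348 against 2/v. With every probe set tested and all of a gene's probe sets required, Pb/2 against wild type had 3, 2/v against f/v 1 and Pb/2 against 2/v 1. The mean of all probe sets left 1 in 2/v against f/v, and no filter left 1 in Pb/2 against 2/v. Only the arrays of the groups compared left 1 in each comparison between mutants. At an adjusted p below 0.01 the counts were 3 in Pb/2 against wild type, and 1, 0 and 1 between mutants. At a change of at least 2-fold they were 3 in f/v and 1 in Pb/2 against wild type, and 0, 0 and 0 between mutants. Why these counts moved was not tested.

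Scaled to CreX, values that were called with or without that scaling changed sign against wild type for slbo in f/v (-0.20), 2/v (-0.68) and Pb/2 (-0.60), tj in 2/v (-0.44) and Pb/2 (-0.60), and peb in Pb/2 (-0.59). Values called with neither changed sign for tj in f/v (-0.54), for eya in 2/v (-0.03) and Pb/2 (-0.10) against f/v, and for tj in Pb/2 against f/v (-0.06). A replicate block left 6, 5 and 4 genes called against wild type and 1 in each comparison between mutants. The arrays were not taken as paired, because the 18 pairs with the same number correlated at -0.1535 to 0.0979 after removal of group means, and 3 of 12 arrays lay closest to their own number.

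Over all 9105 genes 3209, 4239, 2869, 2494, 1871 and 1859 were called in the 6 comparisons. A change of at least 2-fold left 742, 977, 926, 535, 440 and 208, and an adjusted p below 0.01 left 2029, 1858, 1399, 996 and 648, in order without 2/v against wild type. Scaled to CreX, 7000 were called in Pb/2 against wild type and 590 in Pb/2 against 2/v. The latter also fell to 1155 with the array median subtracted, 1001 with only its own arrays, 997 without 2/v replicate 1, 1028 without Pb/2 replicate 1 and 1110 without Pb/2 replicate 2. Higher and lower calls against wild type were 1668 and 1541 in f/v, 2201 and 2038 in 2/v, and 1445 and 1424 in Pb/2. They were 1339 and 1901, 1929 and 2639, and 1272 and 1885 as deposited, 2360 and 1146, 3400 and 1347, and 2517 and 1081 with the array median subtracted, and 376 and 3446, 377 and 5576, and 350 and 6650 scaled to CreX. Between mutants scaling to CreX gave 480 and 1652, 357 and 1671, and 242 and 348, beside 1259 and 1235, 914 and 957, and 845 and 1014.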
